A study of Mus musculus with 10 samples.

Results

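The NF-kB system was followed through 10 genes of an nCounter mouse immune panel. They encode the transcription factor subunits Nfkb1, Rela, Nfkb2 and Relb and the inhibitor-type proteins Nfkbia and Nfkbiz. The rest are called IKK genes here: the kinase genes Chuk, Ikbkb and Ikbke and the scaffold gene Ikbkg. The genes were chosen by name, and all 10 are among the 545 endogenous genes of the panel. The panel counts fluorescent barcodes bound to target molecules and needs no sequencing. The samples were microglia, the resident macrophages of the brain, from the hippocampus of male Balb/c pups at postnatal day 14. The 5 pups given brief daily separation (BDS), taken from the dam for 15 min a day on a schedule of postnatal days 1 to 21, are numbered 11, 17, 24, 38 and 59. The 5 control pups are numbered 1, 18, 40, 52 and 69, and the labels do not describe how controls were handled. Every pup came from a different litter and filled 1 lane, and in both groups the cells were enriched with Percoll and then FACS-sorted. A whole sorted population enters each lane, so fewer cells with a transcript and less transcript per cell cannot be told apart.

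NF-kB is a family of dimeric transcription factors that in resting cells sit in the cytoplasm, bound by IkB inhibitor proteins. In the canonical pathway a complex of the kinases encoded by Chuk and Ikbkb with the scaffold encoded by Ikbkg phosphorylates the inhibitor, which is then degraded and frees dimers such as that of Nfkb1 and Rela. In the alternative pathway the Chuk kinase directs the processing of the Nfkb2 product, which pairs with that of Relb. In microglia the canonical pathway is best known for switching on inflammatory genes after Toll-like receptor or cytokine signals.

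Endogenous counts per lane ran from 341679 to 968930 in BDS lanes and from 76237 to 802033 in control lanes. The housekeeping signal by which lanes were scaled was higher in BDS lanes by 1.23 on the log2 scale, so lane depth moves with the group beside every value that follows, and its part in them was not tested except by a fit with depth as a covariate. Control 52 and control 69 are the lanes with the lowest counts. All 12 microglia markers examined exceeded the lane's negative-control limit in every lane and took 35.0% to 39.3% of endogenous counts in BDS lanes and 33.3% to 40.3% in control lanes. Of the markers of other cells on the panel, 0 of 6 for T cells, 1 of 6 for B cells (Cd79b, above the limit in 10 lanes), 1 of 3 for NK cells (Klrk1, in 8 lanes) and 2 of 6 for granulocytes and monocytes (Csf3r in 10 lanes, Ccr2 in 9) were above the limit in enough lanes to be tested. Ms4a1 of B cells was above it in 0 lanes, and S100a8 and S100a9 of granulocytes in 1 lane each. The B cell markers together took 0.0413% to 0.0585% of counts in BDS lanes and 0.0387% to 0.0774% in control lanes. The 6 granulocyte and monocyte markers together took 0.258% to 0.445% in BDS lanes and 0.369% to 0.901% in control lanes, mostly through Csf3r; the part of this shift in the results was not tested. All 3 endothelial markers on the panel were above the limit in enough lanes to be tested (Pecam1 and Cd34 in 10 lanes, Cdh5 in 9). Together they took 0.212% to 0.259% in BDS lanes and 0.184% to 0.394% in control lanes.

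The start regions of 3 genes are shown because their products act at different levels of the pathway. They are Nfkbia and Nfkb2, known targets of NF-kB itself, and Chuk. With the main scaling, Chuk is the one gene of the 10 whose groups do not overlap. Sequences are from RefSeq on build GRCm38.p6 and run from 250 bases before the annotated start to 50 after it, on the gene's strand. Capitals mark a match to an NF-kB type motif, GGG and TTTCC with any pair of bases between them, searched on both strands, so that the other strand reads GGAAA and CCC around such a pair.
Nfkbia (chr12:55492598-55492897, minus strand): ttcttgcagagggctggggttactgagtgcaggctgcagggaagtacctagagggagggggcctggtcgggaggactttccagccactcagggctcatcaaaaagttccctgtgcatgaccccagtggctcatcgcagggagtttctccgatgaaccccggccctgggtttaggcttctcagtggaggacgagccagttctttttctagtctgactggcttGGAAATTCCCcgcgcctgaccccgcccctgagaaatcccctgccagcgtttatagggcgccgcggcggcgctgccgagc
Nfkb2 (chr19:46304487-46304786, plus strand): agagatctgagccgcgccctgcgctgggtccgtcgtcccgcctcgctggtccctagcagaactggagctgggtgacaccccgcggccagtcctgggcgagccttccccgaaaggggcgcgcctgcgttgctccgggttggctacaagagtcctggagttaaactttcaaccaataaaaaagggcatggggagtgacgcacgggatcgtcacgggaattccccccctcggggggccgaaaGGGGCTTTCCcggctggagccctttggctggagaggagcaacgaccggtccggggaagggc
Chuk (chr19:44107428-44107727, minus strand): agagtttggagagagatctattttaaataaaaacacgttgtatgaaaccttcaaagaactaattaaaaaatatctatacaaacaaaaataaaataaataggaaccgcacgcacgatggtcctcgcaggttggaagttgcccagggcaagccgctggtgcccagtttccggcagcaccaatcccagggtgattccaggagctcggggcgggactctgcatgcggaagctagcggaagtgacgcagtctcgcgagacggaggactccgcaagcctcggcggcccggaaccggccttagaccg
The Nfkbia match begins at position -29 and the Nfkb2 match at -11, counted from the start, while the Chuk window has no match. Windows were given for 6 of the 10 genes, 11 windows in all, since Nfkb2 and Ikbkg have several starts. Of these 11, 4 hold the motif, 1 of Nfkbia and 3 of Nfkb2, and they make up 3 distinct sites because overlapping Nfkb2 windows share 1. Over all 32851 windows of the same length, 1.63% hold it. A match is a run of letters and not a shown binding site, and the windows of Rela, Chuk, Ikbkg and Ikbke hold no such run. Only this form was searched, so runs close to it are neither marked nor counted, such as gggaattccc in the printed Nfkb2 window.

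A gene was tested if at least 4 lanes lay above the negative-control limit. All 10 genes met this, 8 of them in every lane. Under edgeR's quasi-likelihood test with Benjamini-Hochberg adjustment over the 283 genes tested, 0 of the 10 passed an adjusted p of 0.05; over all genes 0 passed (0%). At an unadjusted edgeR p under 0.05 there were 2 of 10, Chuk and Ikbkg, both on the higher side in BDS lanes. The share over all genes at that bound was 28.3%, with 19.4% higher and 8.83% lower. The members' 2 of 10 is thus no larger a share than that of the panel. At an adjusted p under 0.10 there was 1 of 10, Chuk, against 8.13% of all genes. The log2 fold change of BDS over control was above 0 for 7 of the 10 genes, against 55.8% of all genes, and its median was 0.19 over the 10 genes and 0.089 over all genes. The 7 include Ikbke, which passed the presence rule mainly through BDS lanes. Without 1 pup the members' median ran from 0.081 (without BDS 17) to 0.31 (without control 40). With the 5 housekeeping genes that give the authors' own scale factor (the 6 named genes without Sdha), 5 of 10 were above 0, against 46.3% of all genes, with medians of 0.020 and -0.088. With TMM factors, edgeR's trimmed-mean scaling, it was 5 of 10 against 47.3%, and with lane depth as a covariate 6 of 10 against 62.5%. In the values that follow, each raw count was scaled by the housekeeping signal of its lane.

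**Figure D1:**
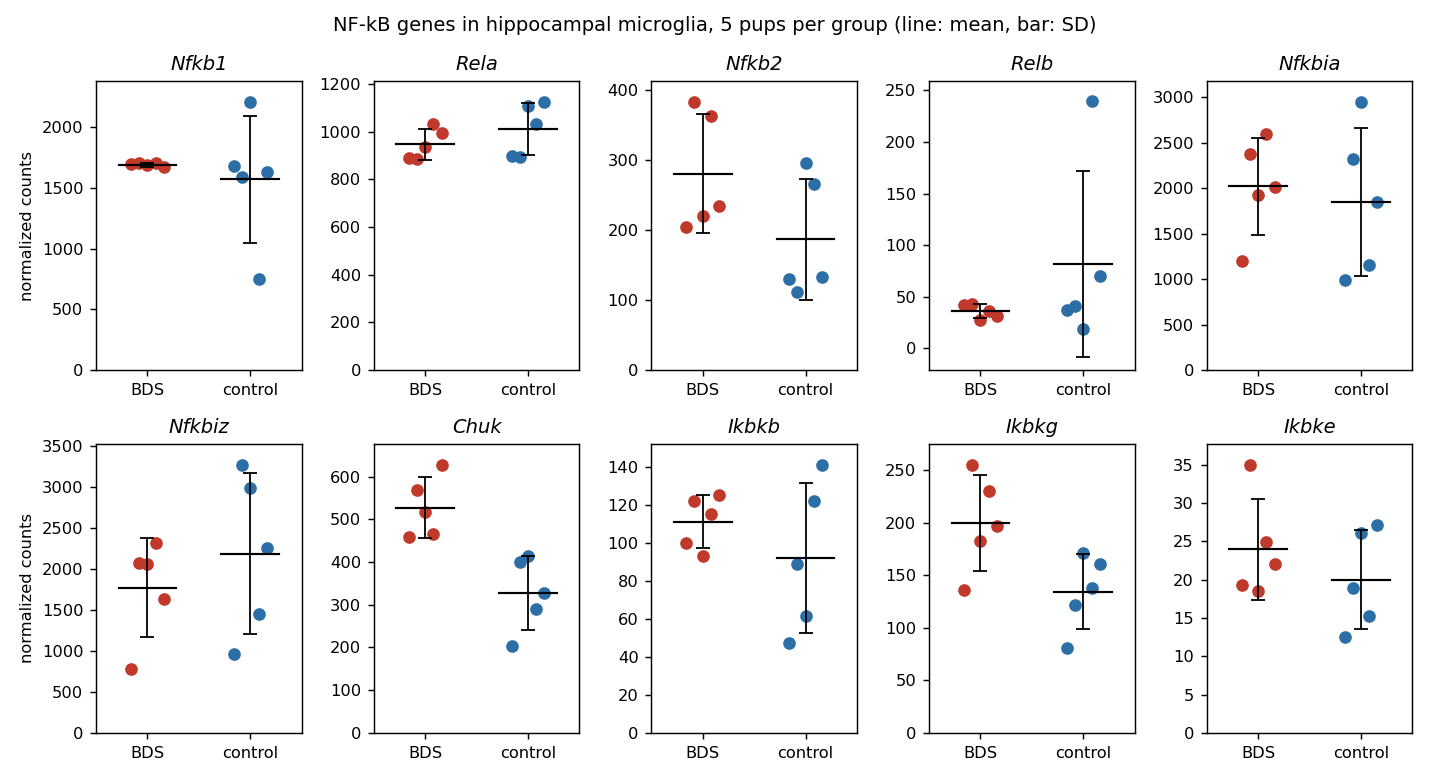
Normalized counts (vertical axis, a scale of its own for each gene) of each of the 10 NF-kB genes, 1 point per pup, BDS left and control right; horizontal lines are means and bars SD (5 pups each). Chuk is the only panel in which the groups do not overlap, and Nfkb1 is nearly level across BDS lanes.

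Among the canonical subunits, Nfkb1 encodes the precursor of a DNA-binding subunit that lacks an activation domain. It stood at 1696, 1707, 1685, 1702 and 1669 normalized counts in BDS 11, 17, 24, 38 and 59, against 1680, 1588, 2204, 750 and 1630 in control 1, 18, 40, 52 and 69. The BDS lanes lie within the control range, and only control 40 and control 52 stand away from the rest. Their difference came to 0.10 ± 0.23 in log2 fold change (SE, 95% interval -0.38 to 0.59; edgeR adjusted p = 0.779). Without control 52 it was -0.071, with the authors' 5 housekeeping genes -0.059, and with TMM -0.029, so it has no settled sign.

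The coefficient of variation of Nfkb1 over the 5 BDS lanes was 0.898%, the smallest of all 283 genes, although raw counts ran from 1402 in BDS 11 to 3714 in BDS 17. Control lanes gave 33.3%. With the 5 housekeeping genes of the authors' factor the BDS value was 2.80%, the second smallest (rank 2 of 283), so the near-equality depends in part on which housekeeping genes are used. This feature was picked after the values were seen.

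Rela encodes the main activating subunit of the canonical pathway. It stood at 890, 884, 936, 1032 and 994 normalized counts in BDS lanes (pups 11, 17, 24, 38 and 59), against 897, 895, 1107, 1030 and 1122 in control lanes (pups 1, 18, 40, 52 and 69). The groups overlap over most of their range, and 4 of 5 BDS lanes lie below the control mean of 1010. This is a log2 fold change of -0.092 ± 0.16 (SE, 95% interval -0.43 to 0.25; edgeR adjusted p = 0.725), the narrowest interval of the 10 genes. In the authors' deposited table Rela has a fold of 0.82 with an unadjusted p of 0.0171. With the authors' 5 housekeeping genes the log2 fold change here was -0.28 (edgeR adjusted p = 0.258). It was 0.016 with all 14 genes of the housekeeping class and 0.0067 without Polr1b, so the sign turns with the scaling. The authors' deposited table gives an unadjusted p under 0.05 to 17.5% of its 309 present genes, and Rela and Chuk are the 2 members among them.

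Of the subunits of the alternative pathway, Nfkb2 encodes a precursor that is cut to the active partner. It stood at 204, 382, 220, 364 and 234 normalized counts in BDS 11, 17, 24, 38 and 59, against 130, 112, 295, 265 and 133 in control 1, 18, 40, 52 and 69. The groups overlap, though BDS 17 and 38 lie above the highest control lane, control 40. All 5 BDS lanes exceed the control mean of 187. edgeR put the log2 fold change at 0.60 ± 0.31 (SE, 95% interval -0.06 to 1.26; edgeR adjusted p = 0.202), and with the authors' 5 housekeeping genes 0.42. It was above 0 in each of the 29 alternatives run.

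Relb encodes the subunit that pairs with the Nfkb2 product. It stood at 42.3, 43.2, 27.8, 36.3 and 31.9 normalized counts in BDS 11, 17, 24, 38 and 59, against 37.5, 41.4, 19.0, 240 and 70.6 in control 1, 18, 40, 52 and 69. Control 52 alone is far above every other lane, and the groups overlap with it and without it. On the log2 scale the fold change was -0.98 ± 0.53 (SE, 95% interval -2.12 to 0.16; edgeR adjusted p = 0.225). It was -0.12 without control 52, 0.18 without control 52 and 69, and 0.51 under a fit with lane depth as covariate. Raw counts of Relb spanned a narrower range than the depth of the lanes. The deep lanes BDS 17 and 38 held the most, 94 and 70, and control 69 the fewest, 26. Control 52, with a housekeeping signal of 113 raw counts, had 47 raw counts of Relb, and control 40, with a signal of 1060, had 35. Raw counts of Relb lay between 1.16 and 1.93 times the lane's negative-control limit in 8 lanes, close to background, and at 5.63 and 3.14 times in BDS 17 and BDS 38.

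**Figure D2:**
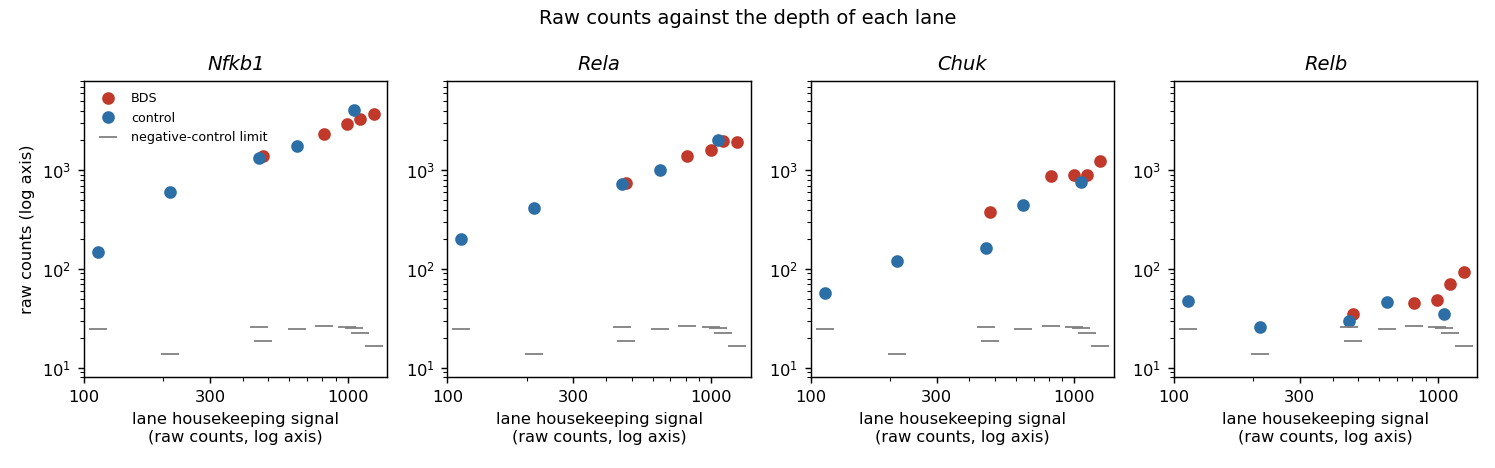
Raw counts of Nfkb1, Rela, Chuk and Relb (log axis) against the housekeeping signal of the lane (log axis), 1 point per pup; grey dashes are each lane's negative-control limit. The first 3 genes climb with depth, while Relb lies between 26 and 94 counts, highest in BDS 17.

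The inhibitor genes gave wide ranges in both groups. Nfkbia encodes IkB alpha, which holds dimers in the cytoplasm and is itself induced by NF-kB, and its mRNA is widely used as a readout of the pathway. It stood at 1200, 2378, 1923, 2594 and 2010 normalized counts in BDS 11, 17, 24, 38 and 59, against 987, 2317, 2942, 1153 and 1847 in control 1, 18, 40, 52 and 69. The lanes of both groups cover nearly the same range. In log2 fold change this was 0.12 ± 0.29 (SE, 95% interval -0.50 to 0.75; edgeR adjusted p = 0.790). It was -0.046 with the authors' 5 housekeeping genes, -0.0028 without control 52, and -0.34 once lane depth was a covariate, so its sign is not settled either.

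Nfkbiz encodes an atypical nuclear IkB protein that helps switch on a secondary set of inflammatory genes. It stood at 779, 2074, 2065, 2316 and 1638 normalized counts in BDS lanes (pups 11, 17, 24, 38 and 59), against 966, 3268, 2993, 1453 and 2262 in control lanes (pups 1, 18, 40, 52 and 69). The highest values are in control 18 and 40 and the lowest in BDS 11 and control 1. edgeR gave a log2 fold change of -0.30 ± 0.33 (SE, 95% interval -1.02 to 0.41; edgeR adjusted p = 0.560). It lay between -0.80, with lane depth as a covariate, and -0.11 in the alternatives run, apart from 0.78 with positive controls alone.

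Both inhibitor genes had low values in BDS 11 and control 1. BDS 11 was 0.60 below the gene mean on the log2 scale for Nfkbia and 1.22 below for Nfkbiz, and control 1 was 0.89 and 0.91 below. Control 52 was lower than BDS 11 for Nfkbia, 0.66 below, but only 0.32 below for Nfkbiz. Of the present genes, the one whose centred profile was nearest to Nfkbiz over the 10 lanes was Nfkbia, with a root-mean-square difference of 0.32 on the log2 scale, where the median over all genes was 0.73. The lane factor cancels in such a difference but for the pseudocount. The lanes still share cells, amplification and depth, and no test was made of it.

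Of the IKK genes, Chuk and Ikbkg had intervals above 0 before adjustment, while those of Ikbkb and Ikbke spanned it. Chuk encodes IKK alpha, the kinase needed for the alternative pathway and a partner in the canonical complex. It stood at 458, 569, 518, 467 and 627 normalized counts in BDS 11, 17, 24, 38 and 59, against 204, 401, 415, 291 and 329 in control 1, 18, 40, 52 and 69. Every BDS lane lies above every control lane, which among all genes tested was seen on the higher side in 3.53% and, reversed, on the lower side in 1.06%. Of the members, Chuk alone showed it, and 0 of 10 were fully separated on the lower side. The mean was 528 ± 71.1 for BDS and 328 ± 86.1 for controls (SD over 5 pups in either group). The fitted log2 fold change was 0.68 ± 0.21 (SE, 95% interval 0.23 to 1.14), a 1.60-fold difference with an edgeR unadjusted p of 0.00609 and adjusted p of 0.0907, rank 19 of 283 by p.

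That call changed with the tool and with 1 lane. DESeq2 with the same scaling gave Chuk an adjusted p of 0.0336 at a log2 fold change of 0.68, where it called 8.83% of all genes. Leaving out control 40 gave an edgeR adjusted p of 0.0328 at 0.78, where 17% of all genes were called. The log2 fold change stayed above 0 in each of the 29 alternatives run, with 0.51 for the authors' 5 housekeeping genes and 0.53 with lane depth as a covariate (edgeR adjusted p = 0.369). The separation of the groups held in 6 of 9 scalings examined. These were the main set of housekeeping genes and that set without Alas1, Gapdh, Oaz1, Polr1b or Tbp, so they are much alike. The groups overlapped without Sdha, with the authors' deposited scores and with all housekeeping-class genes. In the last, the lowest BDS lane was at 482 and the highest control lane at 503. With the authors' deposited scores BDS lanes ran from 594 to 842 and control lanes from 304 to 604, an overlap of the lowest BDS with the highest control value. In the authors' deposited table the fold is 1.42 with an unadjusted p of 0.0148.

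Ikbkb encodes IKK beta, the kinase that does most of the inhibitor phosphorylation in the canonical pathway. It stood at 100.4, 122, 93.1, 115 and 126 normalized counts in BDS 11, 17, 24, 38 and 59, against 47.5, 89.2, 61.4, 122 and 141 in control 1, 18, 40, 52 and 69. The BDS lanes sit within the control range. For Ikbkb the log2 fold change was 0.32 ± 0.29 (SE, 95% interval -0.30 to 0.94; edgeR adjusted p = 0.481). In control 52 its 24 raw counts fall under that lane's limit, so that high normalized value rests on counts at background. With lane depth as a covariate it was at 0.70 (edgeR adjusted p = 0.369), and with the authors' 5 housekeeping genes at 0.12.

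Ikbkg encodes NEMO, the regulatory scaffold of the canonical complex. It stood at 135, 255, 182, 230 and 197 normalized counts in BDS lanes (pups 11, 17, 24, 38 and 59), against 81.2, 122, 171, 138 and 160 in control lanes (pups 1, 18, 40, 52 and 69). Of the BDS lanes, 4 lie above the highest control lane, and BDS 11 lies among the controls. In control 52 Ikbkg had 27 raw counts, 1.11 times that lane's limit, so its normalized value there rests on counts near background. The Ikbkg log2 fold change was 0.58 ± 0.25 (SE, 95% interval 0.05 to 1.11), with an edgeR unadjusted p of 0.0350 and adjusted p of 0.156. With the authors' 5 housekeeping genes it was 0.40 (edgeR adjusted p = 0.282).

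Ikbke encodes an IKK-related kinase best known from interferon induction. Raw counts ran from 3 to 76, and 5 of 10 lanes were above the negative-control limit, BDS 17, 24, 38 and 59 and control 40. It passed the presence rule mainly through BDS lanes, which are deeper, so its presence there is no evidence of a difference. It stood at 19.4, 34.9, 18.5, 24.9 and 22.0 normalized counts in BDS lanes (pups 11, 17, 24, 38 and 59), against 12.5, 18.9, 26.1, 15.3 and 27.2 in control lanes (pups 1, 18, 40, 52 and 69). The groups overlap, and the log2 fold change was 0.25 ± 0.31 (SE, 95% interval -0.43 to 0.92; edgeR adjusted p = 0.607). It was 0.063 without BDS 17, its highest lane, and 0.82 with background subtracted.

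**Figure D3:**
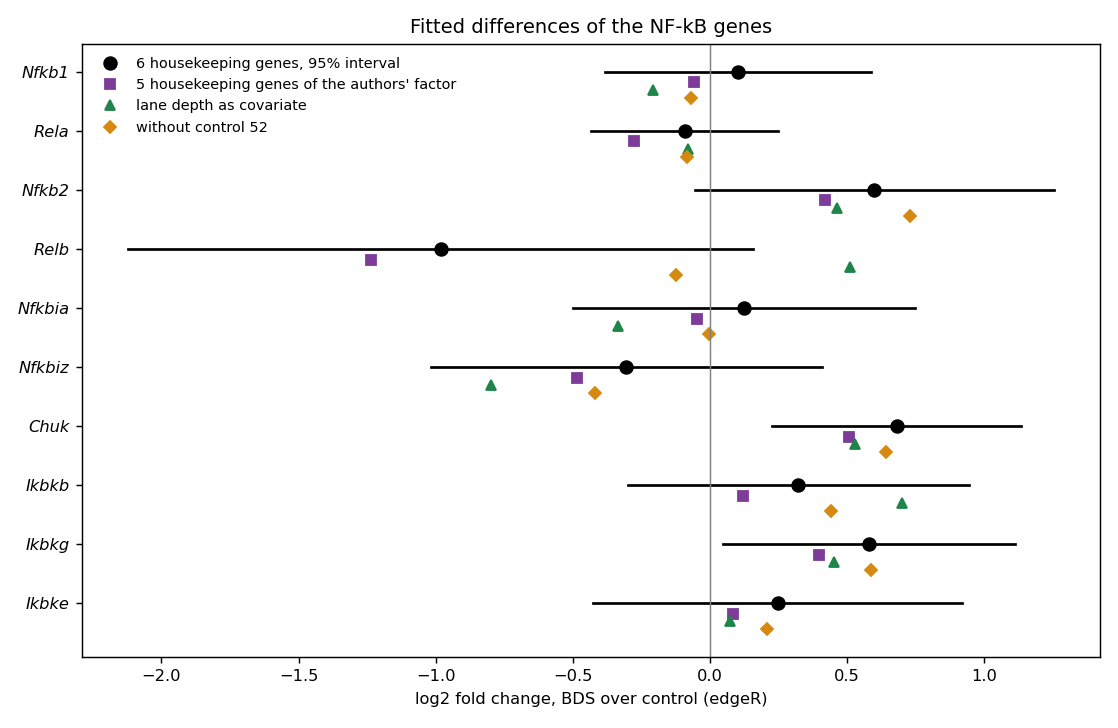
Log2 fold change of BDS over control (horizontal axis, edgeR) for each NF-kB gene; black circles and lines are the fit with 6 housekeeping genes and its 95% interval, and coloured symbols are 3 alternatives. Only the intervals of Chuk (0.23 to 1.14) and Ikbkg (0.05 to 1.11) lie above 0, before adjustment over genes, and Relb moves to -0.12 without control 52.

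One control pup weighed on all of the IKK genes. Control 1 was the lowest of the 10 lanes for Chuk, Ikbkb, Ikbkg, Ikbke and Nfkbia, 5 of the 10 genes, where 23.7% of all genes were lowest in that lane. Without control 1 the log2 fold change was 0.55 for Chuk, 0.15 for Ikbkb, 0.44 for Ikbkg and 0.10 for Ikbke. BDS 17, the deepest lane, was the highest for Nfkb2, Ikbkg and Ikbke, and was highest for 27.2% of all genes.

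**Figure D4:**
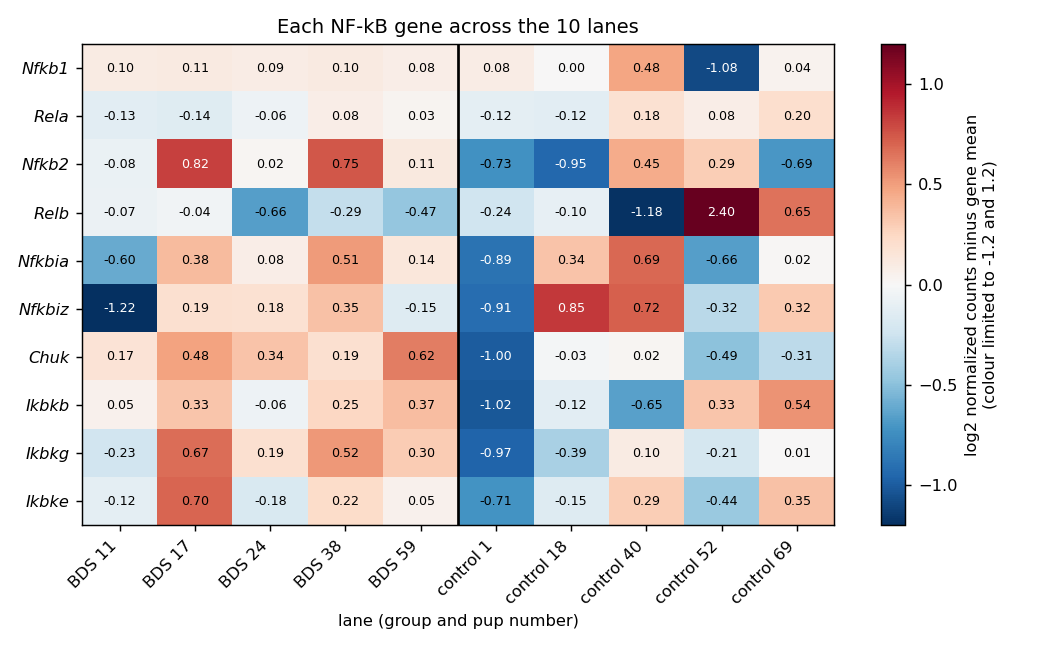
Log2 normalized counts minus the gene's mean over all lanes, for the 10 NF-kB genes (rows) in the 5 BDS lanes (left of the line) and the 5 control lanes (right). Control 1 is low for all 4 IKK genes (-0.71 to -1.02), and Relb is at 2.40 in control 52.

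Relative to the mean and with all 10 lanes, pups differed more among controls than among BDS for every gene of the set. The coefficient of variation was larger over the control lanes than over the BDS lanes for 10 of 10 genes, with medians of 20.6% in BDS lanes and 38.1% in control lanes. Over all 283 genes it was larger in control lanes for 77.7%, with medians of 19.9% in BDS lanes and 31.2% in control lanes. Without control 52 and 69 the count was still 10 of 10, against 52.3% of all genes, though 3 control lanes then remain. Control 1, the lowest lane for 5 of the 10 genes, was kept there, and the count was not redone without it. The 10 of 10 depends on that pup. For Ikbkg the other control lanes run only from 122 to 171 normalized counts, against 135 to 255 in BDS lanes. The SD itself was larger in BDS lanes for Ikbkg (45.7 against 35.5) and Ikbke (6.63 against 6.48). Lane depth also spread more among controls. The SD of the log2 housekeeping signal was 1.28 for controls and 0.549 for BDS, and its part in these values was not tested. The genes share the same lanes and are not independent, and no test was made of the spread.

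Ratios between members within a lane need no scale factor. Probes differ in efficiency, so only differences between lanes are read. No background was removed, so ratios with Relb, Ikbke or Ikbkb rest partly on background counts in some lanes. In control 52 Ikbkb had 24 raw counts and Ikbke 3, against a negative-control limit of 24.4. The log2 ratio of Chuk to Ikbkb averaged 2.24 ± 0.17 for BDS and 1.90 ± 0.66 for controls (SD over 5 pups). It was 2.19, 2.22, 2.47, 2.01 and 2.32 in BDS 11, 17, 24, 38 and 59, against 2.10, 2.17, 2.76, 1.25 and 1.22 in control 1, 18, 40, 52 and 69. The 2 lanes with the lowest counts alone are low, and the difference of 0.35 is smaller than the pooled SD of 0.48.

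For the inhibitor against its target, the log2 ratio of Nfkbia to Rela averaged 1.05 ± 0.39 in BDS lanes and 0.76 ± 0.62 in control lanes. The ratio of Nfkb2 to Nfkb1 averaged -2.64 ± 0.42 in BDS lanes and -3.11 ± 0.97 in control lanes. With all 10 lanes the groups overlapped in each of the 7 ratios examined, and each difference was smaller than the pooled SD between pups. The differences of the other ratios were 0.0099 for Nfkbia to Nfkb1, -0.53 for Relb to Rela, 0.21 for Ikbkg to Ikbkb and -0.093 for Ikbke to Ikbkb, and without control 52 that of Relb to Rela was -0.0068. Single control lanes decide some of these. Without control 52 the difference of Nfkb2 to Nfkb1 was 0.87, larger than the pooled SD of 0.42 among the remaining lanes. Without control 40 it was 0.56 for Chuk to Ikbkb (pooled SD 0.36), 0.43 for Ikbkg to Ikbkb (0.28) and -0.95 for Relb to Rela (0.79). The groups overlapped in these settings too.

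**Figure D5:**
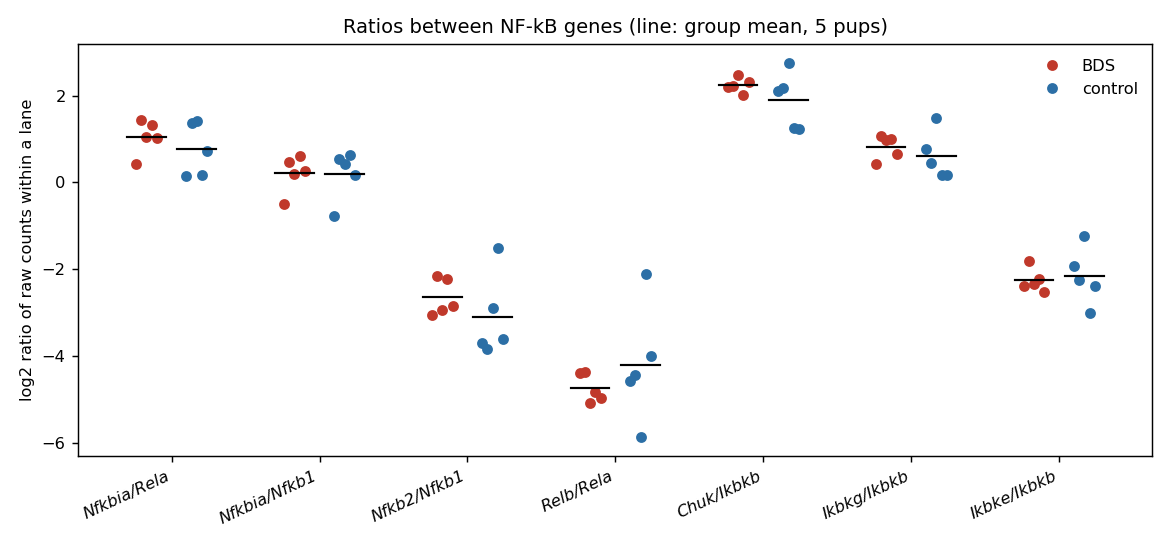
Log2 ratio of raw counts between pairs of NF-kB genes within a lane (vertical axis), BDS left and control right of each pair, 1 point per pup and lines at group means. All 7 pairs overlap, and the control lanes spread more widely.

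Genes around the set on the panel were counted by role, with Irak3, Cd40 and Tnfaip3 each in a pair of lists. Of 16 genes listed as upstream in the pathway, 15 were tested and 0 passed an adjusted edgeR p of 0.05. Not all of them carry signals to the IKK complex: the list holds the negative regulator Irak3 and the IKK-related kinase gene Tbk1. At an unadjusted p under 0.05, 4 were higher (background 19.4%) and 0 lower (8.83%), and the median log2 fold change was 0.26. Tbk1, an IKK-related kinase and close relative of Ikbke, averaged 807 ± 134 normalized counts for BDS and 504 ± 77.5 for controls (SD over 5 pups). Its log2 fold change, 0.68 ± 0.19 (SE), had an edgeR adjusted p of 0.0643. That call changed with the setting: the adjusted p was 0.0489 without Gapdh, 0.0413 without Polr1b, 0.0493 among genes present in all lanes and 0.0253 without control 40 (edgeR), and 0.0114 with DESeq2. Over all alternatives run it lay between 0.0114 and 0.369. Tlr4, the receptor for bacterial lipopolysaccharide, was at 0.47 ± 0.19 (edgeR adjusted p = 0.140). The ubiquitin ligase gene Traf6 was at 0.26 ± 0.22 (edgeR adjusted p = 0.444), and the adaptor gene Myd88 at -0.54 ± 0.33 (edgeR adjusted p = 0.279).

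Of 10 genes of the alternative pathway other than the members, 7 were tested and 0 passed an adjusted edgeR p of 0.05. At the unadjusted bound 2 were lower (background 8.83%) and 0 higher (19.4%), and the median was -0.37. That median was 0.070 with lane depth as a covariate, -0.092 without control 52 and 69, -0.23 without control 18 and -0.83 with no filter on low counts, where the median of all genes was -0.24. The 2 were Cd40lg and Lta, each above the negative-control limit in 4 lanes, so their values lie near background; they are named because the count is small. Traf3, which restrains the alternative pathway, was at -0.37 ± 0.22 (edgeR adjusted p = 0.270). The receptor gene Ltbr was at -0.78 ± 0.42 (edgeR adjusted p = 0.219), with control 52 at 214 normalized counts and BDS lanes from 43.4 to 54.9. The receptor gene Cd40 was above the limit in 0 lanes and was not tested.

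Of 6 negative regulators 4 were tested, and 0 passed the adjusted bound (background 0%) or the unadjusted one (28.3%). Tnfaip3, the enzyme A20 that is induced by NF-kB and shuts it down, averaged 237 ± 57.2 normalized counts for BDS and 238 ± 67.4 for controls (SD over 5 pups). Its log2 fold change was 0.0099 ± 0.25 (SE), with an edgeR adjusted p of 0.989.

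Of 23 genes known as NF-kB targets, 14 were tested, and 0 passed an adjusted edgeR p of 0.05. At the unadjusted bound 4 were higher (background 19.4%) and 0 lower (8.83%), and 9 of 14 had a log2 fold change above 0. The 4, named because the count is small, were Csf1, a growth factor for microglia (0.91 ± 0.24, edgeR adjusted p = 0.0643), the costimulatory gene Cd86 (0.88 ± 0.26, adjusted p = 0.0792), Cd83 (0.47 ± 0.17, adjusted p = 0.126) and the chemokine gene Cxcl10 (1.09 ± 0.46, adjusted p = 0.151). Cxcl10 was high in BDS 17 and 24 (120 and 97.1 normalized counts) and at 48.4 in BDS 11. In BDS 38 and 59 it was at 24.3 and 24.8, under the control mean of 31.2. The median over the list was 0.18, but 0.024 without BDS 17, 0.064 without control 1, -0.024 with the authors' 5 housekeeping genes and -0.39 with no filter on low counts. Of the targets picked for their role, Tnf was at -0.48 ± 0.31 and the chemokine gene Ccl4 at -0.61 ± 0.29, while the cytokine gene Il1b was at 0.47 ± 0.26 and the adhesion gene Icam1 at -0.11 ± 0.23 (edgeR adjusted p = 0.290, 0.182, 0.244 and 0.779 in that order). Of the targets on the panel, 9 were not tested, Il6 and Nos2 among them with 1 and 2 lanes above the limit.

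By the same likeness measure, the gene nearest to Nfkb1 was Prdm1 (0.13), to Rela Ccr6 (0.15), to Ikbkg Casp2 (0.16) and to Chuk Atg16l1 (0.21), where the values are root-mean-square log2 differences over the 10 lanes. Nfkb2 was nearest to Bst1 (0.18), Ikbkb to Itgb2 (0.22), Ikbke to Ikbkg (0.25), Relb to Jak1 (0.27) and Nfkbia to Ifnar1 (0.28). The median difference to all genes ran from 0.45 for Rela to 1.00 for Relb. Among the 45 pairs of members, Ikbke with Ikbkg was nearest, then Ikbkg with Chuk (0.27) and Nfkbia with Nfkbiz (0.32). Ikbke was above the negative-control limit in 5 of 10 lanes and Relb was close to it in most, so their likenesses rest partly on background counts.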

How the data were processed

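Per the labels' protocols, 2 ng of RNA went through reverse transcription and 5 PCR rounds before hybridization to the panel. The deposited raw table holds barcode counts per probe, not normalized; which software counted them is not stated in the labels. A further deposited table holds the authors' normalized counts rounded to whole numbers, treated as a score, with the percent of samples above background, the fold change as a ratio of group means and an unadjusted p-value, per the file headers. The design text speaks of positive controls and 5 housekeeping genes but names 6; here the geometric mean of all 6 set the lane scale (Alas1, Gapdh, Oaz1, Polr1b, Sdha, Tbp). The deposited scores matched the 5 without Sdha (SD of the log ratio 1.11e-05, against 0.0857 for all 6).

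A gene counted as present with 40% of lanes (4 of 10) above the limit, which was the mean of the lane's negative probes plus 2 SD, and 283 of 545 were. Raw counts were fitted with edgeR 4.0.16 in R 4.3.3 (quasi-likelihood F test, two-sided, no covariate); the step was tested on simulated data. Intervals are 95%, and standard errors come from the log2 fold change and the F statistic. Log2 values use a pseudocount of 1. Alternatives used DESeq2 1.42.0, limma 3.58.1 and the settings of the closing section. No 2 lanes were alike to within sampling noise (chi-square per degree of freedom at least 22.8). Counts follow amplification without molecular identifiers. All 10 gene names matched RefSeq by accession.

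The rule for named genes took all 10 members, the nearest profile of each, and 12 genes picked for their role. Members and lists were chosen with earlier results of these data known.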

Additional observations from a re-analysis of the deposited data

Results flagged for a closer look

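Relb in control 52 stood at 239.7 normalized counts, far from the other control lanes (19.0 to 70.6): its gap to the nearest lane was 0.766 of the group's range, above Dixon's 95% critical value of 0.71 for 5 samples. Of 34 groups of 5 values examined (10 genes and 7 ratios in both groups), 1 passed, where about 1.7 would by chance. The lane had 47 raw counts of Relb against a negative-control limit of 24.4, and the lowest housekeeping signal of the 10 lanes (113 raw counts); the part of that in the value was not tested.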

How the results depend on the processing

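No paired analysis was possible because the pup numbers of the groups are not shared. In the settings run, 0 members passed an edgeR adjusted p of 0.05, except that DESeq2 called 1 (Chuk) and leaving out control 40 also gave 1, so that the count without 1 pup ran from 0 to 1. Members at an unadjusted p under 0.05 numbered 2, but 1 with median-of-ratios scaling, without Oaz1, on the authors' scores, and without control 1, control 18, BDS 17, BDS 38 or BDS 59, 3 with all housekeeping-class genes, without Gapdh, without Polr1b, with DESeq2, with lane depth as a covariate, without control 52, without BDS 11 and without control 52 and 69, 4 without control 40 and 5 with positive controls alone. The median over the members was 1.28 with positive controls alone, where that over all genes was 1.35. That scaling also turned Rela (1.10), Relb (1.05), Nfkbiz (0.78), Myd88 (1.10), Ltbr (1.06), Traf3 (0.80), Tnf (0.74), Ccl4 (0.49) and Icam1 (0.99). Under TMM the sign turned for Nfkb1 (-0.029), Nfkbia (-0.0030) and Tnfaip3 (-0.10), and under median-of-ratios for the same genes (-0.042, -0.024 and -0.12). Without Sdha these were -0.059, -0.046 and -0.18. Rela was 0.016 with all housekeeping-class genes and 0.0067 without Polr1b. Tnfaip3 was -0.051 without Oaz1 and with background subtracted, and -0.17 on the authors' scores. With lane depth as a covariate the turned values were Nfkb1 -0.21, Relb 0.51, Nfkbia -0.34, Myd88 0.22, Tnfaip3 -0.014 and Ltbr 0.33. Without control 52 and 69 they were Nfkb1 -0.11, Relb 0.18, Nfkbia -0.044 and Ltbr 0.14. With 1 pup left out, the range was -0.071 to 0.26 for Nfkb1, -0.036 to 0.36 for Nfkbia, -0.13 to 0.12 for Tnfaip3 and -0.25 to 0.026 for Icam1. Chuk, Nfkb2, Ikbkb and Ikbkg stayed above 0 in every setting run. So did Ikbke, but it passed the presence rule mainly through BDS lanes, so its sign is no evidence of a difference. Requiring all lanes above the limit leaves out Ikbkb and Ikbke, and no background-subtracted ratio of Ikbke to Ikbkb exists, since counts of Ikbke fall under the background. The causes of these turns were not tested.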
